A study of Homo sapiens with 12 samples.

Results

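The genes described here are 10 immediate early genes: FOS, FOSB, FOSL2, JUN, JUNB, JUND, EGR1, KLF6, IER2 and IER3. They were taken by gene symbol, and 10 of 10 were found among the 17096 genes listed in every library. The libraries are total RNA of H7 cells, an established human embryonic stem cell line, in directed differentiation towards cardiomyocytes. There were 12 libraries in 6 groups of 2. Wild type cells were sampled at day 3 (labelled cardiac mesoderm) and at days 7 and 15 (labelled cardiomyocytes), and cells with the genotype E2A-/- were sampled on the same days under the same cell type labels. No agent or other allele is named for any group. The sources used here state neither where the edit lies, nor how many clones were used, nor where the replicates came from. The spread behind each p-value is that between these libraries, which may be technical.

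Immediate early genes are switched on within minutes of a signal such as a growth factor, a stretch or a stress, from factors already in the cell, and their mRNAs are short-lived. FOS family proteins pair with JUN family proteins to form AP-1, a transcription factor that binds a short DNA site, and JUN proteins can also pair with each other. Many of these genes are driven by ERK kinases through serum response factor (SRF) at CArG boxes and through CREB at cyclic AMP response elements (CREs). In the heart they are known for their fast response to stretch and hypertrophic stimuli. E2A is the product of TCF3, a helix-loop-helix factor that binds E-boxes.

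CArG boxes and the core of a CRE, but not a full CRE, were matched in the promoter of EGR1. Its genotype difference turned in sign between days 3 and 7, as did that of FOS, whose window held no CArG box. The part of these motifs in either turn was not tested. Of the 10 genes, 9 had a window in the RefSeq promoter table (GRCh38.p14), which runs from 250 bases before to 50 bases after the start. IER3 was not matched. The EGR1 stretch is chr5:138465309-138465478 on the plus strand, upstream of the gene. Capitals mark its 2 CArG boxes and its 2 copies of the CRE core TGACGT, here read on the other strand.

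EGR1: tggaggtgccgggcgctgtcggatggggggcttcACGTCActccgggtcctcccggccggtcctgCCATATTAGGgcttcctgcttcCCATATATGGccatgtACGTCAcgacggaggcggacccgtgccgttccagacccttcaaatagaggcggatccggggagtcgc

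The CArG boxes of EGR1 were CCATATTAGG at 105 to 96 bases and CCATATATGG at 83 to 74 bases before the start. A CArG box was held by 1 of the 9 windows and by 1.285% of all 27305 promoter windows. The core TGACGT, on either strand, was held by 5 of the 9 and by 8.32% of all windows. It lay 60 to 67 bases before the start at its upstream end in FOS, FOSB, FOSL2 and EGR1, and 87 bases before it in JUND. These distances are from the RefSeq start. By the GENCODE 29 places given below, the core of FOS lies just before the start of the gene and that of FOSL2 inside it. This core was looked for only after the promoters had been read. The 30 bases around it are shown because these genes include FOS, FOSB and FOSL2 and EGR1, whose levels are set side by side below. Capitals mark the core, in its own or its reverse-complement form.

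FOS, chr14:75278752-75278781, plus strand: tggttgagcccgTGACGTttacactcattc

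FOSB, chr19:45467924-45467953, plus strand: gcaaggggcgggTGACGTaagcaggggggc

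FOSL2, chr2:28392780-28392809, plus strand: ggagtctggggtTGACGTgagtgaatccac

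EGR1, chr5:138465400-138465429, plus strand: atatggccatgtACGTCAcgacggaggcgg

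JUND, chr19:18281692-18281721, minus strand: tgcaaatgagcgACGTCAcccgcacccaat

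The other motifs were searched on both strands too. The full CRE TGACGTCA was in 1 of the 9 windows (JUND, at 200 to 193 bases before the start, where it overlaps 2 matches to the core) and in 1.98% of all windows. The AP-1 sites TGACTCA and TGAGTCA were in 1 of the 9 (FOSL2, just past the start) and in 4.92% of all. The EGR site GCGNGGGCG was in 2 of the 9 (EGR1 itself and KLF6) and in 9.28% of all. The E-boxes CAGCTG and CAGGTG were in 0 of the 9, against 17.7% and 20.6% of all windows. These are matches of letters in a window, and no binding was measured. Sequence outside the windows was not searched, so a motif missing here may lie farther from the start. By GENCODE 29 the whole window of JUN (chr1:58783998-58784297) lies inside the gene.

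**Figure D1:**
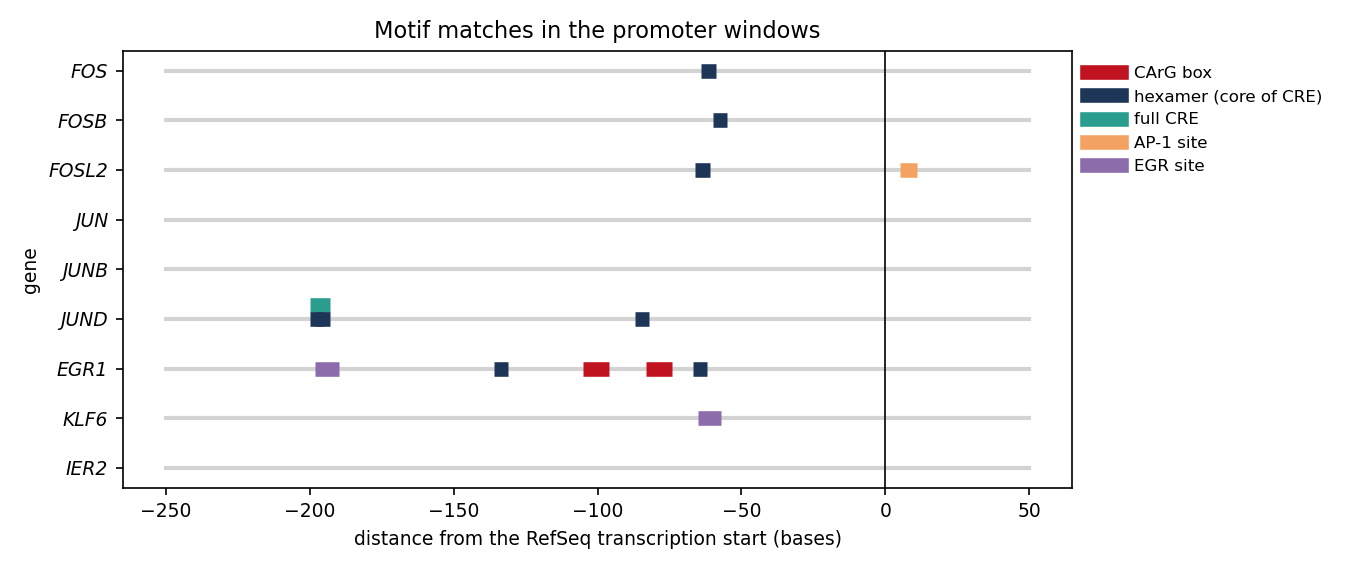
Motif matches in the promoter windows of the 9 matched genes, by distance in bases from the RefSeq start (250 before to 50 after). The CRE core sits at nearly the same distance before the RefSeq start of FOS, FOSB, FOSL2 and EGR1. Within these windows EGR1 alone of the 9 matched CArG boxes, and sequence outside them was not searched.

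The level of a gene is given as FPKM, fragments scaled to transcript length and library size, so that levels of different genes can be set side by side. The targeted gene, TCF3, was at 179.5 and 148.9 FPKM in wild type and at 145.9 and 148.1 in the libraries labelled knockout at day 3. At day 7 it was at 135.2 and 138.0 against 179.9 and 172.1, and at day 15 at 74.4 and 98.2 against 169.7 and 108.3. The TCF3 mRNA was therefore not lower in the libraries labelled knockout at days 7 and 15. At day 3 the difference of -0.15 (limma, log2, adjusted p = 0.618) did not pass. It turned to 0.02 with libraries scaled to the sum of nuclear genes, which leaves mitochondrially encoded transcripts out of the total. At day 7 the difference of 0.36 (adjusted p = 0.159) passed only with that scaling (0.57) and with only the compared groups in the fit. At day 15 TCF3 passed as higher in the labelled knockout (0.66, adjusted p = 0.0234). That call ended without wild type replicate 1 (0.46) or labelled knockout replicate 1 (0.34), and with only the compared groups in the fit. An mRNA level does not show the protein. The knockout is named below by its label.

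The libraries held an estimated 6800000 to 11700000 fragments, and log2 values of replicates correlated at 0.973 to 0.990. Mitochondrially encoded transcripts made up 16.9% and 15.7% of the summed FPKM in wild type against 18.8% and 17.4% in the labelled knockout at day 3, 8.54% and 8.14% against 20.2% and 18.5% at day 7, and 26.1% and 26.2% against 13.9% and 14.3% at day 15. The share was thus higher in the labelled knockout at day 7 and lower at day 15. The summed FPKM differed as well, from 577716 to 734958 over the libraries. At day 3 it was 734958 and 724365 in wild type against 668618 and 649709 in the labelled knockout. Nuclear-gene scaling takes out both differences at once, so the part of the mitochondrial share alone in the differences below was not tested. The labelled cell types were checked with marker genes. At day 3, 5 of 5 mesendoderm markers were listed, with a summed level of 1341 and 1338 FPKM in wild type and 399.6 and 372.8 in the labelled knockout. All 5 cardiomyocyte markers were listed, summing to 6051 and 6050 FPKM against 1153 and 1004 at day 7, and to 8483 and 9360 against 3626 and 2926 at day 15. The 4 listed neural markers of 5 summed to 22.7 and 24.4 in wild type against 101.8 and 107 FPKM at day 3, to 5.11 and 6.46 against 99.97 and 93.9 at day 7, and to 7.13 and 6.84 against 29.7 and 30.5 at day 15. They did not all move together, since STMN2, a neuronal microtubule regulator gene, was at 17.8 and 18.9 against 5.02 and 5.81 FPKM at day 3. The 4 listed pluripotent cell markers of 5 summed to 2053 and 2022 against 2449 and 2356 FPKM at day 3, and to 106.4 and 127.4 against 463 and 431.2 at day 15. At day 3 SOX2, DPPA4 and LIN28A were higher in the labelled knockout. POU5F1 was lower there, at 1041.1 and 1033.6 in wild type against 850.6 and 851.6 FPKM. At day 15 SOX2 and LIN28A were higher, and POU5F1 and DPPA4 overlapped between genotypes. The 3 listed fibroblast and smooth muscle markers of 5 summed to 1308 and 1321 against 418.5 and 345.3 FPKM at day 7. The 5 endothelial markers summed to 117.3 and 102.6 against 65.2 and 56.2 FPKM at day 7, and the 3 listed endoderm markers of 5 to 126.9 and 130.4 against 31.9 and 35.7 FPKM at day 3. Each of the 17096 genes listed was above 0 in every library, so no listed marker could be at 0. Shares of all genes given below refer to such genes only. The 5 blood cell markers were not analysed here. The genotypes thus differed in marker content on each day, and the part of these markers in any difference below was not tested. In bulk RNA, fewer cells of a type and less RNA per cell cannot be told apart.

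Between genotypes, the 10 genes did not move as a block. At day 3, 1 of the 10 was higher (FOSL2) and 6 were lower (FOS, JUND, EGR1, KLF6, IER2 and IER3) in the labelled knockout, where 9.51% of the 16295 genes tested were higher and 14.1% lower. At day 7, 4 were higher (FOS, FOSB, FOSL2 and EGR1) and 5 lower (JUN, JUNB, JUND, KLF6 and IER3), where 22.1% of all were higher and 19.9% lower. At day 15, 1 was higher (EGR1) and 4 were lower (JUN, JUND, KLF6 and IER3), where 18.9% of all were higher and 16.2% lower. The medians of the 10 log2 differences were -0.44, -0.06 and -0.34, beside -0.01, 0.06 and 0.03 for all genes. Differences are labelled knockout minus wild type of log2(FPKM + 1), a scale that understates the change of genes at a few FPKM, and a gene passed at an adjusted p under 0.05 in limma. Leaving out any 1 library of its groups left 4 or 5 genes of the 7 at day 3 and 6 of the 9 at day 7.

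**Figure D2:**
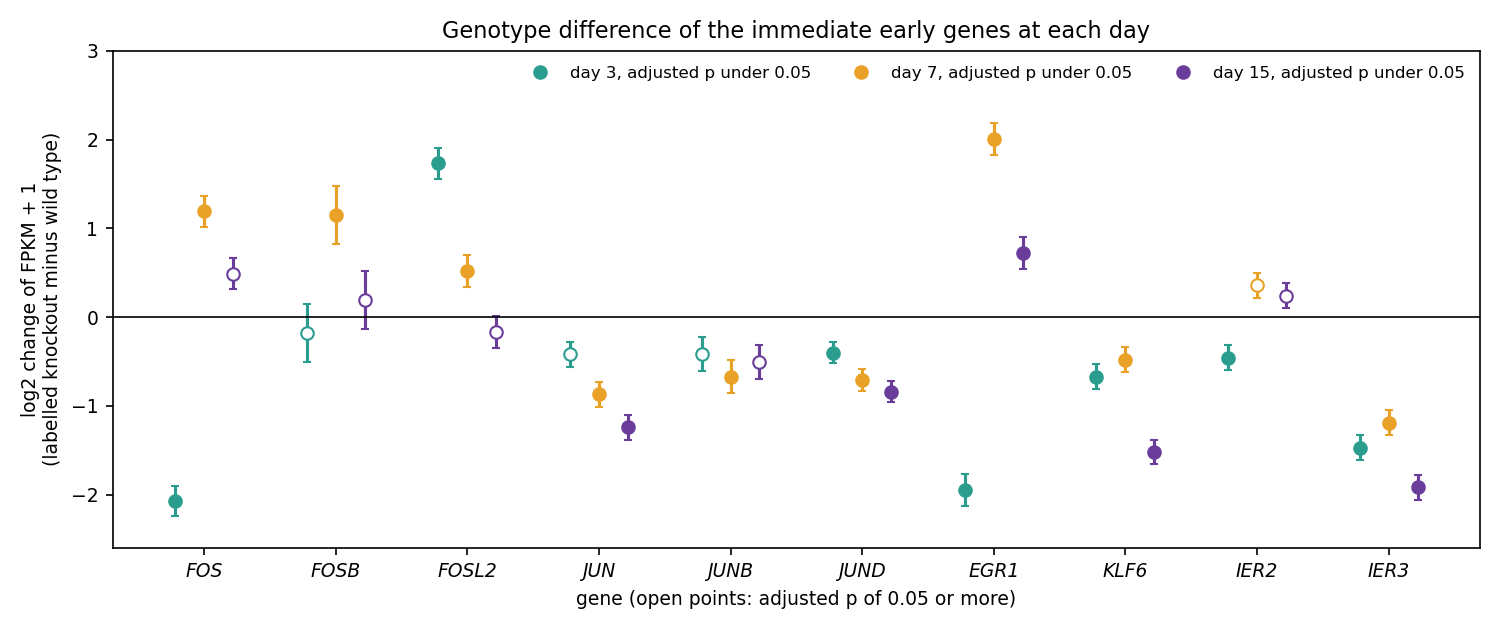
Genotype difference of each gene in log2 of FPKM + 1 (labelled knockout minus wild type) at days 3, 7 and 15, with its standard error as a bar; filled points have an adjusted p under 0.05. FOS and EGR1 lie near -2 at day 3 and above 0 at day 7, while the JUN family, KLF6 and IER3 lie below 0 on all 3 days.

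FOS, the founding AP-1 partner of JUN, had a genotype difference that turned in sign. At day 3 it was at 9.55 and 11.8 FPKM in wild type and at 1.97 and 1.59 in the labelled knockout. At day 7 it was at 2.92 and 3.53 against 9.55 and 7.75, and at day 15 at 6.19 and 6.29 against 9.38 and 8.95. The groups did not overlap on any day, with wild type above at day 3 and below at days 7 and 15. FOS fell by 2.07 (SE 0.17, adjusted p = 3.96e-05) in the labelled knockout at day 3 and rose by 1.19 (SE 0.17, adjusted p = 4.52e-04) at day 7. At day 15 the difference of 0.49 (SE 0.17, adjusted p = 0.0506) did not pass, and it passed with nuclear-gene scaling (0.50, adjusted p = 0.0388). The change in the genotype difference between days 3 and 7 was 3.26 (SE 0.25, adjusted p = 2.63e-05). FOS lies on chromosome 14 at 75278774 to 75282230 (GRCh38, plus strand, 4 exons in the longest transcript), and its lowest value corresponds to about 38 fragments.

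FOSB, which like FOS can activate AP-1 sites with a JUN partner, was the least precisely measured of the 10. At day 3 it was at 1.13 and 0.461 FPKM in wild type and at 0.82 and 0.333 in the labelled knockout, where the lowest value is about 14 fragments. At day 7 it was at 0.609 and 1.21 against 3.29 and 3.06, and at day 15 at 1.86 and 1.56 against 3.43 and 1.14. The groups overlapped at days 3 and 15 and did not at day 7. FOSB rose by 1.15 (SE 0.33, adjusted p = 0.0181) in the labelled knockout at day 7, a call that ended without wild type replicate 1 (0.92), labelled knockout replicate 1 (1.11) or labelled knockout replicate 2 (1.185). The differences of -0.18 (SE 0.33, adjusted p = 0.741) at day 3 and 0.19 (SE 0.33, adjusted p = 0.694) at day 15 did not pass, and each turned in sign with 1 library left out, to 0.09 without wild type replicate 1 or 0.04 without labelled knockout replicate 2 at day 3 and to -0.34 without labelled knockout replicate 1 at day 15. FOSB (chromosome 19, 45467995 to 45475179, plus strand) lies within ERCC1 on the opposite strand, with which it shares 0 exon bases.

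FOSL2 encodes FRA2, a FOS family protein without the strong activation domain of FOS. It was the only one of the 10 that was higher in the labelled knockout at day 3, at 4.35 and 3.82 FPKM against 0.4 and 0.672 in wild type. At day 7 it was at 7.38 and 5.98 against 4.12 and 4.54, and at day 15 at 9.64 and 7.44 against 9.83 and 9.56. The groups were apart at days 3 and 7 and overlapped at day 15. The difference was 1.73 (SE 0.18, adjusted p = 1.59e-04) at day 3, 0.52 (SE 0.18, adjusted p = 0.0416) at day 7 and -0.17 (SE 0.18, adjusted p = 0.491) at day 15. The day 7 call ended without any 1 of its 4 libraries (0.39 to 0.65), with median-ratio scaling (0.445), with a pseudocount of 0.1 (0.61) and with only the compared groups in the fit (adjusted p = 0.0525). From day 3 to day 7 the difference moved by -1.21 (SE 0.26, adjusted p = 0.00969), the opposite way from FOS. FOSL2 lies on chromosome 2 at 28392448 to 28417312, plus strand.

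The make-up of the FOS family transcripts differed between genotypes at day 3. In wild type FOS made up 86.2% and 91.3% of the summed FPKM of FOS, FOSB and FOSL2, and FOSL2 3.61% and 5.19%. In the labelled knockout FOS made up 27.6% and 27.7% and FOSL2 60.9% and 66.5%. By day 7 FOS stood at 38.2% and 38.1% in wild type and at 47.2% and 46.1% in the labelled knockout, and by day 15 at 34.6% and 36.1% against 41.8% and 51.1%. FOS thus outweighed FOSB and FOSL2 together in both wild type libraries of day 3 and, of the other 10, only in labelled knockout replicate 2 of day 15. Among the JUN transcripts JUND made up 84.2% to 89.1% in the 8 libraries of days 3 and 7 and 64.8% to 71.4% in the 4 of day 15. FOSL1, the remaining FOS family gene, was not analysed here, and these shares have no test of their own.

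**Figure D3:**
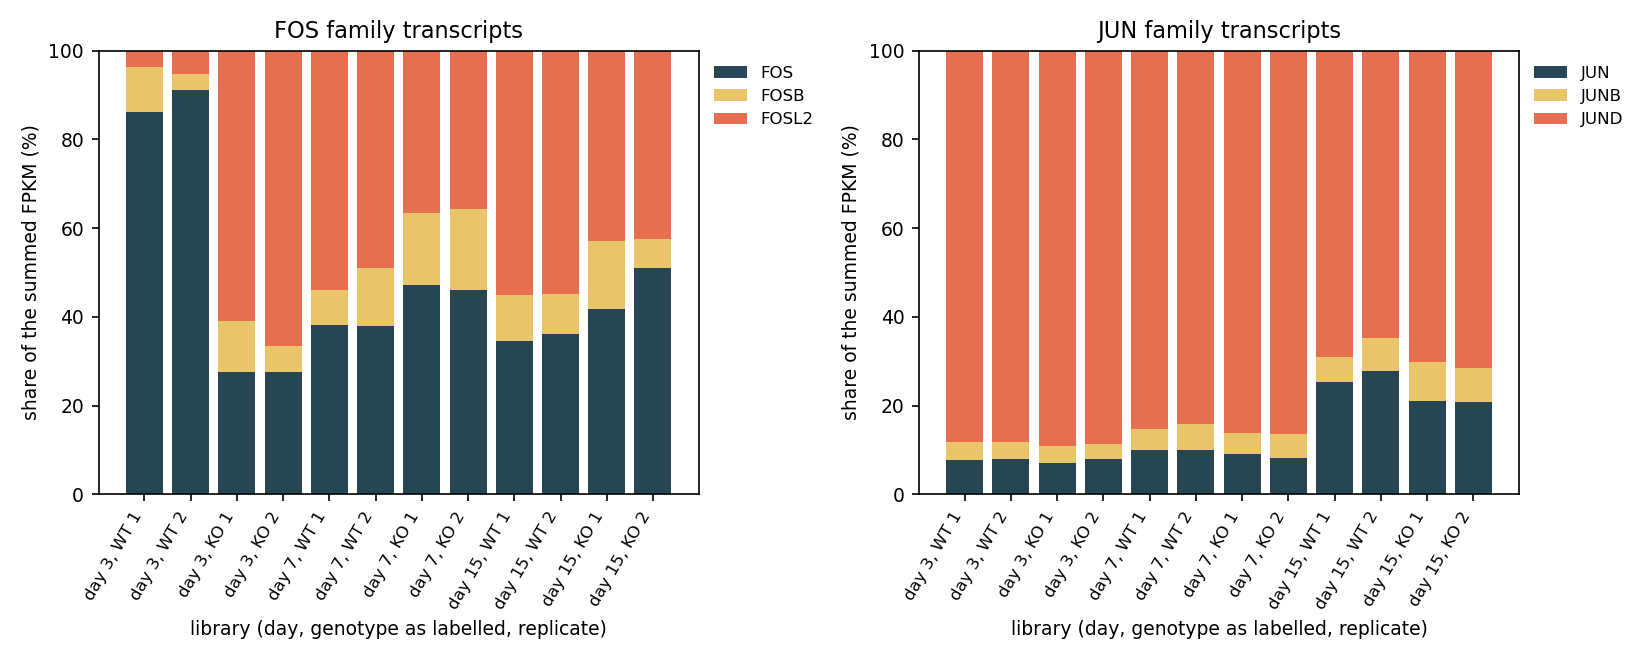
Share of each gene in the summed FPKM of its family, in percent, for FOS, FOSB and FOSL2 (left) and for JUN, JUNB and JUND (right), with 1 bar per library. The wild type bars of day 3 are mostly FOS (86.2% and 91.3%) and the labelled knockout bars of that day mostly FOSL2, while JUND takes most of every JUN bar.

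JUN, the AP-1 subunit that can act as a pair with itself, was lower in the labelled knockout on all 3 days, by a margin past the test at days 7 and 15. It was at 10.1 and 9.92 FPKM in wild type and at 7.13 and 7.4 in the labelled knockout at day 3. It was at 19.8 and 17.7 against 10.1 and 9.4 at day 7, and at 48.8 and 50.9 against 23.3 and 18.1 at day 15. The groups did not overlap on any day. The differences were -0.42 (SE 0.14, adjusted p = 0.0584), -0.87 (SE 0.14, adjusted p = 8.19e-04) and -1.24 (SE 0.14, adjusted p = 1.43e-04). The first passed with median-ratio scaling (adjusted p = 0.0401) and with a filter at 5 FPKM (adjusted p = 0.0499). JUN lies on chromosome 1 at 58780788 to 58784327, minus strand, and has 1 exon.

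JUNB, often a weaker activator than JUN, showed a similar order with smaller margins. It was at 5.29 and 4.73 FPKM in wild type against 3.75 and 3.25 in the labelled knockout at day 3, at 9.32 and 10.6 against 5.47 and 6.29 at day 7, and at 11 and 13.4 against 9.81 and 6.84 at day 15. The groups did not overlap, but only the day 7 difference of -0.67 (SE 0.19, adjusted p = 0.0163) passed. That call ended without wild type replicate 2 (-0.59) or labelled knockout replicate 1 (-0.59). The differences of -0.42 (adjusted p = 0.14) at day 3 and -0.51 (adjusted p = 0.0577) at day 15 did not pass. The day 15 one passed without labelled knockout replicate 1 (-0.745, adjusted p = 0.0197), with both other scalings (-0.54 and -0.51) and with a filter at 5 FPKM (-0.51). JUNB lies on chromosome 19 at 12791496 to 12793315, plus strand, and 259 of its exon bases (14.2%) are also exon of HOOK2 on the opposite strand. HOOK2 itself moved by 0.58, 1.29 and -0.50 at days 3, 7 and 15, and without a stated strand setting the reads of this stretch cannot be told apart.

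JUND, the JUN family gene with steady expression in many tissues, was the most abundant of the AP-1 genes. It was at 116.0 and 110.6 FPKM in wild type against 89.0 and 82.6 in the labelled knockout at day 3, at 169.7 and 150.8 against 96.4 and 98.9 at day 7, and at 133.0 and 118.5 against 77.7 and 62.4 at day 15. Wild type was above the labelled knockout in every library of every day. JUND fell by 0.40 (SE 0.12, adjusted p = 0.0412), by 0.71 (SE 0.12, adjusted p = 0.00129) and by 0.84 (SE 0.12, adjusted p = 5.99e-04) at days 3, 7 and 15. The day 3 call ended without any 1 of its 4 libraries (-0.45 to -0.34), without limma's trend, and with libraries scaled to the sum of nuclear genes (-0.22). JUND lies on chromosome 19 at 18279760 to 18281622, minus strand.

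EGR1, a zinc finger factor that binds GC-rich sites and is a standard readout of ERK signalling, had the largest change in genotype difference of the 10 between days 3 and 7. At day 3 it was at 17.6 and 16.3 FPKM in wild type and at 3.49 and 3.8 in the labelled knockout. At day 7 the order was the other way, at 4.42 and 6.14 in wild type and 25.7 and 22.6 in the labelled knockout. At day 15 it was at 7.81 and 7.31 against 14.7 and 11.6. The groups were apart on each day, and the highest libraries of all 12 were the 2 labelled knockout libraries of day 7. EGR1 fell by 1.95 (SE 0.18, adjusted p = 6.07e-05) at day 3, rose by 2.01 (SE 0.18, adjusted p = 1.96e-05) at day 7 and rose by 0.72 (SE 0.18, adjusted p = 0.00965) at day 15. The day 15 call ended without wild type replicate 2 (0.675) or labelled knockout replicate 1 (0.56). The difference changed by 3.96 (SE 0.25, adjusted p = 7.28e-06) from day 3 to day 7 and by -1.30 (SE 0.25, adjusted p = 0.0033) from day 7 to day 15. The change from day 3 to day 7 was already known when the 10 genes were chosen, so its p-value is not separate support. EGR1 lies on chromosome 5 at 138465490 to 138469315, plus strand, with 2 exons and 1 annotated transcript.

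KLF6, a zinc finger factor of the Kruppel-like family, was lower in the labelled knockout on all 3 days. It was at 23.8 and 19.4 FPKM in wild type against 13.3 and 13.0 at day 3, at 16.0 and 14.9 against 11.6 and 10.1 at day 7, and at 54.3 and 60.7 against 20.1 and 18.6 at day 15. No groups of the same day overlapped. The differences were -0.67 (SE 0.14, adjusted p = 0.00661), -0.48 (SE 0.14, adjusted p = 0.0185) and -1.52 (SE 0.14, adjusted p = 3.54e-05). The day 3 call ended without wild type replicate 1 (-0.53). The day 7 call ended without wild type replicate 1 (-0.43), wild type replicate 2 (-0.53) or labelled knockout replicate 2 (-0.38), and with nuclear-gene scaling (-0.285). The change in the difference between days 7 and 15 was -1.04 (SE 0.20, adjusted p = 0.00301). KLF6 lies on chromosome 10 at 3775996 to 3785281, minus strand.

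IER2, an early response gene whose product acts in the nucleus, varied least of the 10, from 35.0 to 64.6 FPKM over all 12 libraries. It was at 50.3 and 50.4 FPKM in wild type against 37.7 and 35.0 in the labelled knockout at day 3, at 49.6 and 49.5 against 64.6 and 63.3 at day 7, and at 35.0 and 40.3 against 52.0 and 37.9 at day 15. The groups were apart at days 3 and 7, in opposite order, and overlapped at day 15. IER2 fell by 0.46 (SE 0.14, adjusted p = 0.0407) at day 3, while the differences of 0.36 (SE 0.14, adjusted p = 0.0652) at day 7 and 0.24 (SE 0.14, adjusted p = 0.224) at day 15 did not pass. The day 3 call ended without any 1 of its 4 libraries (-0.51 to -0.41), without limma's trend and with nuclear-gene scaling (-0.285), and the day 7 difference passed with that scaling (0.56). The day 15 difference passed without labelled knockout replicate 2 (0.46). The change of 0.82 (SE 0.20, adjusted p = 0.0178) between days 3 and 7 passed and stopped passing in 6 of the 8 fits without 1 library (0.77 to 0.82), those without wild type replicate 1 or 2 or labelled knockout replicate 2 of day 3, and without wild type replicate 1 or 2 or labelled knockout replicate 1 of day 7. IER2 lies on chromosome 19 at 13150415 to 13154908, plus strand, and shares 30.8% of its exon bases with an annotated antisense gene.

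IER3, a stress-induced gene tied to cell survival and ERK signalling, had the highest level of the 10 in wild type at day 3. It was at 156.4 and 168.4 FPKM in wild type against 54.5 and 61.4 in the labelled knockout at day 3, at 25.2 and 27.5 against 9.5 and 12.7 at day 7, and at 88.4 and 87.8 against 22.2 and 23.0 at day 15. Wild type was higher in every library of every day. IER3 fell by 1.47 (SE 0.14, adjusted p = 7.49e-05), 1.19 (SE 0.14, adjusted p = 9.91e-05) and 1.92 (SE 0.14, adjusted p = 7.71e-06). The difference moved by -0.73 (SE 0.19, adjusted p = 0.0158) from day 7 to day 15, a call that ended without wild type replicate 1 (-0.67) or labelled knockout replicate 2 (-0.54) of day 7. IER3 lies on chromosome 6 at 30743199 to 30744554, minus strand, and shares 26.5% of its exon bases with its antisense gene IER3-AS1.

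**Figure D4:**
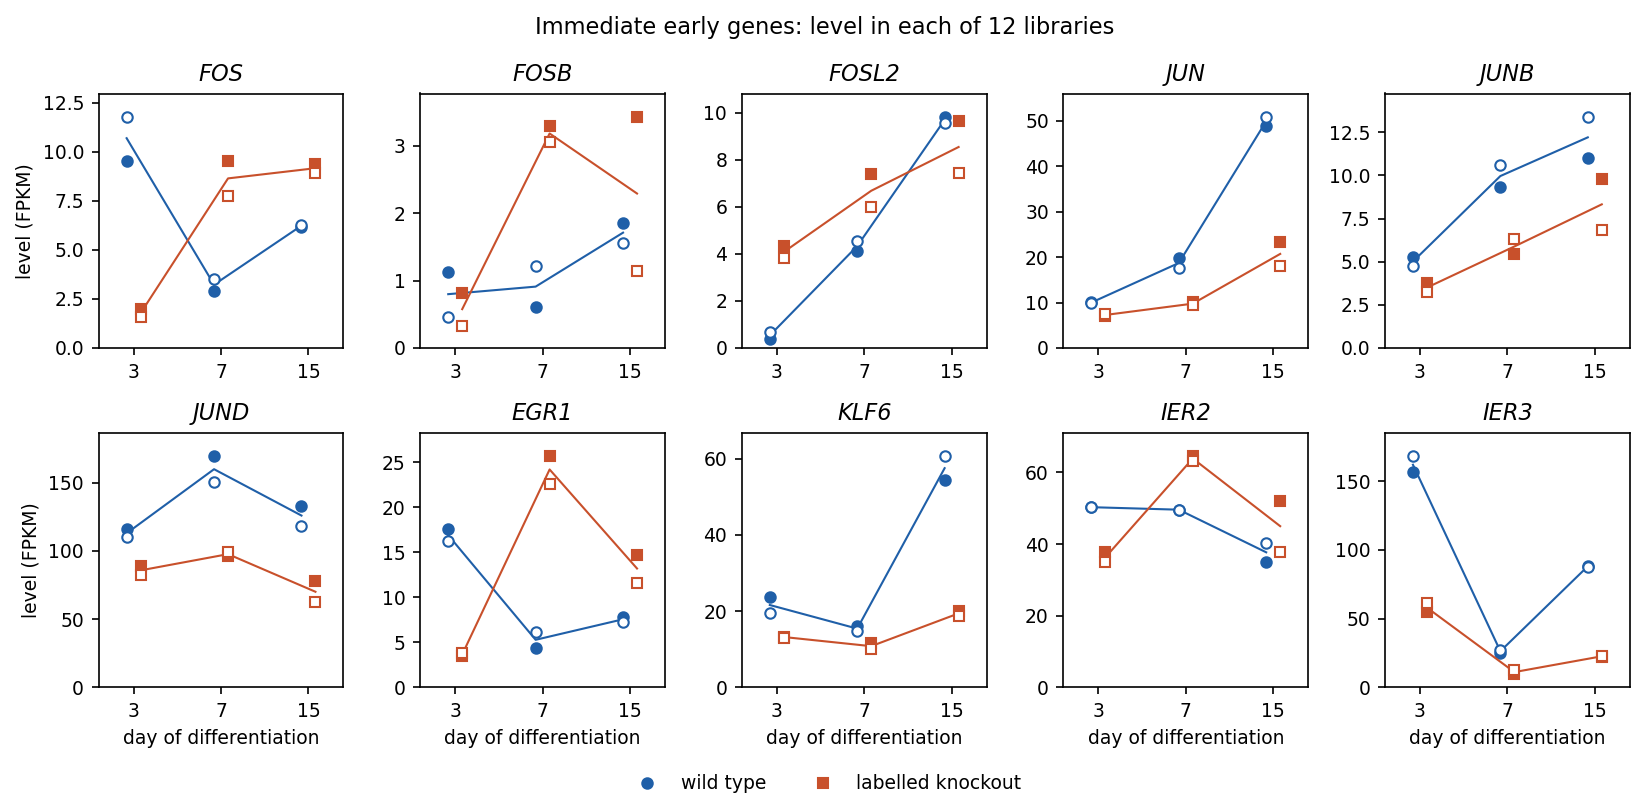
Level in FPKM of each of the 10 genes in all 12 libraries by day of differentiation; circles are wild type, squares labelled knockout, filled symbols replicate 1, open symbols replicate 2, and lines join group means. The lines of FOS and EGR1 cross between days 3 and 7, and those of JUN, JUND, KLF6 and IER3 do not cross.

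The change of the genotype difference between days was tested for every gene. Between days 3 and 7 the difference moved up past the test in 3 of the 10 (FOS, EGR1 and IER2) and down in 1 (FOSL2). Of all genes, 11.3% moved up and 8.9% down. The EGR1 change was known when the 10 genes were chosen, so its place in this count is not separate support. FOSB moved by 1.33 (adjusted p = 0.0703), and the 3 JUN genes, KLF6 and IER3 by -0.46 to 0.29, none of them past the test. Between days 7 and 15 it moved up in 0 and down in 3 (EGR1, KLF6 and IER3), where 16.6% of all moved up and 15.2% down. At an unadjusted p under 0.05 the limma counts were 0 up and 5 down. With nuclear-gene scaling, 6 genes passed this test, with FOS (-0.86), FOSL2 (-0.87) and JUN (-0.55) added, and without labelled knockout replicate 1 of day 15 FOSB (-1.48), FOSL2 (-0.865) and JUN (-0.54) were added. These tests share libraries with the comparisons of each day and do not stand apart from them.

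Within wild type, FOS, EGR1, KLF6 and IER3 fell from day 3 to day 7 and FOSL2, JUN, JUNB and JUND rose. That is 4 of the 10 higher and 4 lower, where 21.1% of all genes were higher and 22.6% lower. IER3 fell by 2.58, EGR1 by 1.53 and FOS by 1.46 on the log2 scale, while FOSL2 rose by 1.80, JUNB by 0.87 and JUN by 0.84. The rise of JUND (0.49) stopped passing without wild type replicate 2 of day 3 (0.46) or replicate 1 of day 7 (0.41), and the fall of KLF6 (-0.45) without replicate 1 of day 3 (-0.315), replicate 1 of day 7 (-0.50) or replicate 2 of day 7 (-0.41). From day 7 to day 15, 6 were higher and 2 lower, where 25.5% of all were higher and 26.8% lower. KLF6 rose by 1.83, IER3 by 1.71, JUN by 1.37, FOSL2 by 1.01 and FOS by 0.78. The rise of EGR1 (0.46, adjusted p = 0.0469) and the falls of JUND (-0.35) and IER2 (-0.39) passed narrowly. EGR1 stopped passing without replicate 1 of day 7 (0.26), replicate 1 of day 15 (0.42) or replicate 2 of day 15 (0.50). JUND stopped without replicate 1 (-0.26) or 2 (-0.43) of day 7 or replicate 2 of day 15 (-0.26), and IER2 without replicate 1 or 2 of day 7 (both -0.39) or replicate 1 of day 15 (-0.29). Nuclear-gene scaling ended the calls of JUND (-0.16) and IER2 (-0.205), as did a fit without the trend, and median-ratio scaling (0.43) or a fit of the compared groups alone ended that of EGR1. Without wild type replicate 1 of day 7, 5 of the 8 calls were left.

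Within the labelled knockout the first step ran the other way for FOS and EGR1. From day 3 to day 7, 6 of the 10 were higher (FOS, FOSB, FOSL2, JUNB, EGR1 and IER2) and 1 lower (IER3), where 17.3% of all genes were higher and 11.4% lower. EGR1 rose by 2.43, FOS by 1.79, FOSB by 1.42 and IER2 by 0.80, and IER3 fell by 2.30. Without labelled knockout replicate 2 of day 3 only 4 of these 7 calls were left, since FOSB (1.20), FOSL2 (0.52) and JUNB (0.53) no longer passed. The rise of FOSL2 (0.59) also ended without replicate 1 of day 3 (0.67) or of day 7 (0.46), and that of JUNB (0.61) without replicate 1 of day 3 (0.69) or either replicate of day 7 (0.70 and 0.53). From day 7 to day 15, 3 were higher (JUN, KLF6 and IER3) and 3 lower (JUND, EGR1 and IER2), where 13.3% of all were higher and 15.1% lower. JUN rose by 1.00, IER3 by 0.98 and KLF6 by 0.79, and EGR1 fell by 0.84. The falls of JUND (-0.48) and IER2 (-0.52) ended without labelled knockout replicate 1 of day 7 (-0.50 and -0.50), replicate 2 of day 7 (-0.46 and -0.53) or replicate 2 of day 15 (-0.33 and -0.29). With only the compared groups in the fit, FOSL2 and JUNB at the first step and JUND and IER2 at the later step no longer passed, and FOSL2 also stopped with a pseudocount of 0.1 (0.69).

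The order of the levels shifted with the days. In wild type at day 3 the order was IER3, JUND, IER2, KLF6 and EGR1, followed by FOS and JUN, whose ranges overlapped. JUNB came next, and FOSB and FOSL2 were lowest, also with overlapping ranges. In wild type at day 15 the order was JUND, IER3, KLF6, JUN, IER2, JUNB, FOSL2, EGR1, FOS and FOSB, with no overlap between neighbours. In the labelled knockout at day 7, JUND and IER2 led and EGR1 came next at 25.7 and 22.6 FPKM, above IER3 at 9.5 and 12.7.

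Over the 12 libraries, log2 levels of JUN and JUNB correlated at r = 0.911 (Spearman's rho 0.902), FOS and EGR1 at 0.901 (rho 0.874), JUN and KLF6 at 0.847 (rho 0.755) and EGR1 and IER2 at 0.727 (rho 0.797). Without the 2 libraries farthest from the median of the first gene these were 0.919, 0.844, 0.426 and 0.604, so that of JUN and KLF6 rested largely on those libraries. The 12 libraries form 6 groups of 2 and share the group differences, so these values are descriptions. Among 12572 other genes, HSPA1A, a stress-induced chaperone gene, was most like FOS (r = 0.937, and 0.882 without the 2 farthest libraries), followed by ARIH2 (0.89), FIZ1 (0.86), COQ4 (0.842) and MARCKSL1 (0.837). Without the 2 farthest libraries these were 0.775, 0.829, 0.613 and 0.589, so those of COQ4 and MARCKSL1 rested in part on those libraries. HSPA1A was at 19.8 and 21.1 FPKM in wild type and 9.28 and 10.9 in the labelled knockout at day 3, at 11.9 and 12.9 against 17.6 and 21.1 at day 7, and at 18.2 and 19.5 against 21.5 and 23.7 at day 15. It has a near-identical copy, HSPA1B, so its reads are uncertain. For EGR1 the most similar genes were GRHL3 (0.898), NRG1 (0.896), PLXNB2 (0.89), PLPP5 (0.885) and DYNLL2 (0.874), which were at 0.835, 0.834, 0.826, 0.843 and 0.89 without the 2 farthest libraries. GRHL3, an epithelial transcription factor gene, was at 0.321 and 0.779 FPKM in the labelled knockout at day 3 and at 10.2 and 7.92 at day 7, with wild type at 3.94 and 2.94 and then 2.47 and 1.72. NRG1, a ligand of ERBB receptors, was at 2.37 and 2.8 and then 7.24 and 7.93 in the labelled knockout, with wild type at 4.2 and 5.17 and then 3.24 and 3.38.

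Other genes of the same pathways were counted as lists in the same limma fit. Beside every list count below, 9.51% of all genes tested were higher and 14.1% lower at day 3. These shares were 22.1% and 19.9% at day 7, and 18.9% and 16.2% at day 15. The medians of all genes were -0.01, 0.06 and 0.03. Some of the list counts are near these shares, and no list was tested as a set. Of 17 other immediate early genes tested, 0 were higher and 6 lower in the labelled knockout at day 3 (median -0.47), 5 higher and 6 lower at day 7 (median -0.12), and 4 higher and 7 lower at day 15 (median 0.03). EGR3, a relative of EGR1, was at 0.11 and 0.056 FPKM in wild type and at 5.21 and 3.65 in the labelled knockout at day 7, a rise of 2.31 (adjusted p = 2.55e-05). BTG2, an anti-proliferative gene, was at 57.8 and 56.0 against 12.3 and 10.3 FPKM at day 3 and fell by 2.24 (adjusted p = 5.53e-06). It fell by 0.48 at day 7 and rose by 0.55 at day 15, at 5.9 and 5.5 against 9.31 and 8.29 FPKM. The day 7 call of BTG2 ended with wild type replicate 1 left out (-0.42), with replicate 2 of the labelled knockout left out (-0.45) or with nuclear-gene scaling (-0.28), and the day 15 call without wild type replicate 2 (0.50) or with only the compared groups in the fit. CYR61, which encodes a matrix-associated protein, fell by 1.22 at day 7 and by 1.67 at day 15, and PPP1R15A, which encodes a regulatory subunit of a stress phosphatase, by 0.84 at day 3 and by 1.33 at day 15. At day 7 PPP1R15A fell by 0.34, a call that ended without any 1 of its 4 libraries.

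SRF binds CArG boxes, where partner proteins join it, and the ERK and JNK kinases act on these proteins and on AP-1. A list of 9 genes held SRF, its partners ELK1, ELK3, ELK4, MKL1 and MKL2, the CRE-binding factor CREB1, and NAB1 and NAB2, which encode corepressors of EGR proteins. Of these 9 genes, 0 were higher and 2 lower at day 3 (median -0.30), 2 higher and 2 lower at day 7 (median -0.04), and 4 higher and 1 lower at day 15 (median 0.49). ELK3 fell by 0.83 at day 3, a call that ended without any 1 of its 4 libraries, fell by 0.96 at day 7 and rose by 1.12 at day 15. ELK4 rose by 1.05 at day 7. CREB1 rose by 0.54 at day 7, a call that ended without wild type replicate 2 (0.43) or labelled knockout replicate 1 (0.39), and by 0.73 at day 15, and SRF fell by 0.45 at day 15. The day 15 call of CREB1 ended without wild type replicate 2 of day 15 (0.63), and the SRF call without that library (-0.37) or labelled knockout replicate 2 (-0.31). Of 10 ERK and JNK kinase genes, 0 were higher and 2 lower at day 3 (median 0.02), 0 and 2 at day 7 (median -0.07), and 4 and 0 at day 15 (median 0.25). Where these lists and the others had 0 higher at day 3, the counts at an unadjusted p under 0.05 were 1 for other immediate early genes, 1 for the list of SRF, CREB1 and NAB genes, 1 for the kinases, 0 for the ERK output genes described next and 0 for heat shock genes. For the kinases the count of 0 higher at day 7 and that of 0 lower at day 15 stayed at 0. RPS6KA1, which encodes a kinase that ERK activates, fell by 0.53 at day 3 (adjusted p = 0.0494) and rose by 0.82 at day 15. Its day 3 call ended without any 1 of its 4 libraries (-0.62 to -0.44) and in 5 of the 8 other alternatives. MAP2K2, which encodes a kinase that activates ERK, fell by 0.67 at day 3, a call that ended without wild type replicate 2 (-0.58), and by 0.65 at day 7.

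Another list holds genes tied to the output of ERK signalling: DUSP phosphatases, SPRY and SPRED inhibitors, which damp the pathway, and ETV4 and ETV5, which encode transcription factors that it induces. Of these 13 ERK output genes, 0 were higher and 8 lower in the labelled knockout at day 3 (median -0.71), 1 higher and 5 lower at day 7 (median -0.35), and 2 higher and 3 lower at day 15 (median -0.09). The phosphatase gene DUSP6 was at 71.9 and 72.9 FPKM in wild type against 23.6 and 29.8 at day 3, a fall of 1.41 (adjusted p = 3.66e-05), and SPRY4 was at 125.9 and 113.0 against 41.1 and 32.8, a fall of 1.67 (adjusted p = 1.02e-04). At day 7 DUSP6 was at 152.9 and 161.2 FPKM in wild type and at 120.7 and 124.5 in the labelled knockout, and SPRY4 at 16.0 and 15.7 against 16.0 and 12.4. The fall of DUSP6 at day 7 (0.35, adjusted p = 0.0319) was a call that ended without any 1 of its 4 libraries. SPRY2, named after its values were seen, was the 1 gene of the list that passed as higher in the labelled knockout at day 7. It was at 19.0 and 21.6 FPKM in wild type against 28.8 and 33.0 (0.58, limma, adjusted p = 0.00381), after a fall of 0.87 at day 3. From day 3 to day 7 the genotype difference moved up in 5 of the 13, DUSP4 (0.94), DUSP6 (1.06), SPRY2 (1.45), SPRY4 (1.51) and ETV5 (0.97), and down in DUSP1 (-0.97), beside 11.3% and 8.9% of all genes. The calls of DUSP4, ETV5 and DUSP1 in this change ended without some single libraries (0.80 to 0.91, 0.76 to 0.99 and -0.90). DUSP5 fell by 1.32 at day 3 and by 1.51 at day 7, and SPRY1 rose by 1.58 at day 15. Of 8 heat shock genes, 0 were higher and 3 lower at day 3 (median -0.39), 1 and 1 at day 7 (median 0.11), and 3 and 3 at day 15 (median 0.19). HSPB1, a small heat shock protein gene, fell by 2.47 at day 7, and HSPA8, a chaperone gene, rose by 1.33 at day 15.

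**Figure D5:**
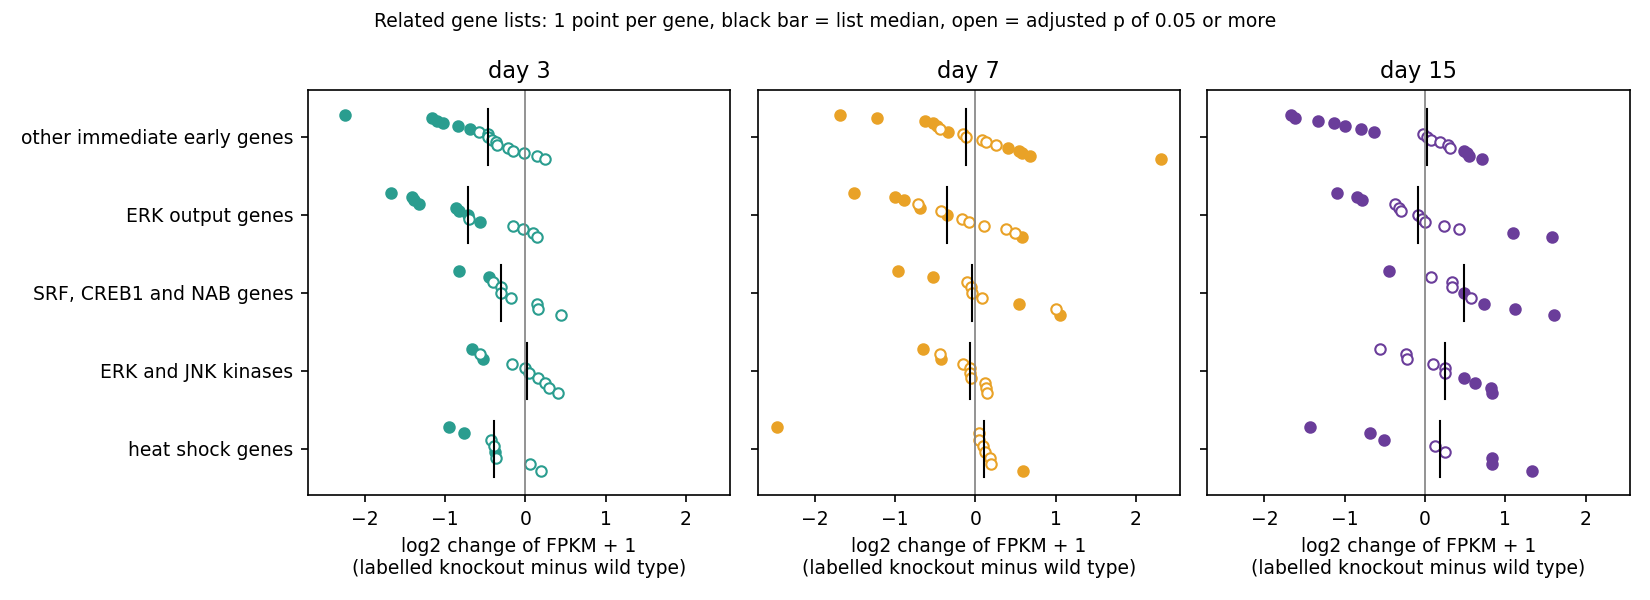
Genotype difference in log2 of FPKM + 1 at days 3, 7 and 15 for every tested gene of 5 related lists, with 1 point per gene, filled where the adjusted p was under 0.05, and a black bar at the list median. At day 3 no filled point lies above 0 in any list, where 9.51% of all genes tested were higher. At days 7 and 15 filled points lie on both sides of 0 in most lists.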

How the data were processed

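The authors deposited 1 table of FPKM values by gene symbol for each library. No label names the unit, which was read from how the values behave. Per the submitters' processing notes, BWA and the genome hg38 (GRCh38) were used, and the quantification program, its annotation and its strand setting were not given in the sources used here. Per the labels' protocols, libraries were made from 1 ug of total RNA. The members and lists were chosen with earlier results of these data known. A gene was kept when 2 or more libraries reached 1 FPKM. The 16295 kept genes (801 were left out) were tested with limma 3.58.1 in R 4.3.3 (trend option) on log2(FPKM + 1) over the 6 group means, with Benjamini-Hochberg adjustment over all tested genes and a two-sided threshold of 0.05. A count model could not be used, since only 58.6% to 74.4% of low values came within 0.1 of whole fragments. Depth, and the fragments quoted, are estimates from single-transcript genes of at least 1500 bases, by GENCODE 29 lengths, which also gives the gene places. Of 863 such genes, only 17 to 46 per library had values low enough to set the estimate. On data simulated with normal noise for the 3 genotype comparisons (16295 genes each) the test found 59% to 70% of log2 changes of 1 and 93% to 98% of changes of 2. Of all simulated calls, 3.1% to 5.8% were false. In each comparison 100 genes were changed by 1 and 100 by 2, while 3849 to 6852 genes were called in the data. The adjustment depends on that share, so these rates may not carry over to the data. Changes were planted only in genes with a wild type mean of at least 5 FPKM. FOSB was below that level on all days, and FOS and FOSL2 on some, so the simulation does not cover them there. Named besides the 10 genes are TCF3, HOOK2, ERCC1 and IER3-AS1 (genes that the results touch, the last 3 added after seeing the annotation), FOSL1, up to 4 called genes per list with the smallest adjusted p, and the 5 genes most like FOS and EGR1; STMN2, SPRY2 and the ERK output genes whose difference changed from day 3 to day 7 were named after their values were seen, and a gene that this rule also names is not reported here. Alternatives were 2 other scalings, no filter or a filter at 5 FPKM, a pseudocount of 0.1, no trend, only the groups compared, the replicate number as a block, and each library left out.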

Additional observations from a re-analysis of the deposited data

Results flagged for a closer look

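For 6 genes the genotype difference itself differed between days by the test of that difference in limma (labelled knockout minus wild type, log2 of FPKM + 1, 2 libraries per group). From day 3 to day 7 it moved by 3.96 for EGR1 (SE 0.25, adjusted p = 7.28e-06), with the labelled knockout below wild type in both libraries at day 3 and above it in both at day 7. It moved by 3.26 for FOS (SE 0.25, adjusted p = 2.63e-05), with the same order of the libraries. It moved by -1.21 for FOSL2 (SE 0.26, adjusted p = 0.00969), which was higher in the labelled knockout on both days. For IER2 it moved by 0.82 (SE 0.20, adjusted p = 0.0178), a call that 6 of the 8 fits without 1 library did not keep. The change of EGR1 from day 3 to day 7 was already known when the genes were chosen, so its p-value is not separate support.

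From day 7 to day 15 the difference moved by -1.30 for EGR1 (SE 0.25, adjusted p = 0.0033), by -1.04 for KLF6 (SE 0.20, adjusted p = 0.00301) and by -0.73 for IER3 (SE 0.19, adjusted p = 0.0158). EGR1 stayed above wild type in the labelled knockout at day 15, and KLF6 and IER3 stayed below it. The share of cardiomyocyte, neural and other cell markers differed between genotypes on the same days, and their part in these changes was not tested.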

How the results depend on the processing

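The calls of FOS, FOSL2, EGR1 and IER3 at day 3, of FOS, JUN, JUND, EGR1 and IER3 at day 7, of JUN, JUND, KLF6 and IER3 at day 15, and the changes of difference of FOS, FOSL2 and EGR1 from day 3 to day 7 and of EGR1 and KLF6 from day 7 to day 15 held in every alternative run. FOSB and EGR3 had no value with a filter at 5 FPKM. Of the counts of called genes, that of the change from day 7 to day 15 went from 3 to 6 with nuclear-gene scaling and to 5 without the trend. Leaving out 1 library gave 4 to 5 calls at day 3, 2 to 6 for the change from day 7 to day 15, 5 to 6 for wild type day 15 against day 7 and 4 to 6 for labelled knockout day 7 against day 3, with the libraries named in the report, and the cause was not tested. Direction turned for some differences that had not passed. With nuclear-gene scaling these were JUNB from day 7 to day 15 (-0.024), IER2 in wild type from day 3 to day 7 (0.044) and TCF3 at day 3 (0.024). With 1 library left out, FOSB ranged from -0.455 to 0.092 at day 3, from -0.337 to 0.71 at day 15, from -0.179 to 0.369 in wild type from day 3 to day 7 and from -0.962 to 0.085 in the labelled knockout from day 7 to day 15. FOS in the labelled knockout ranged from -0.054 to 0.216 over that step, and the changes of difference from day 7 to day 15 ranged from -0.073 to 0.391 for JUNB, from -0.29 to 0.021 for JUND and from -0.346 to 0.098 for IER2.

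Nuclear-gene scaling moved the median of all genes from -0.01 to 0.12 at day 3, from 0.06 to 0.22 at day 7, from 0.01 to 0.17 in wild type from day 7 to day 15 and from -0.01 to -0.17 for the change from day 7 to day 15. The share of called genes that were higher went from 40.3% to 62.3%, from 52.6% to 68.2%, from 48.7% to 60.1% and from 52.2% to 37.7%. Replicates carry the numbers 1 and 2 in each group. The differences between numbers correlated at 0.103 to 0.206 between the 3 labelled knockout groups, at -0.035 to 0.017 between the 3 wild type groups and at -0.121 to 0.048 across genotypes. The labels do not say what a number stands for, and with 2 numbers per group the data do not settle whether it pairs samples. With the number as a replicate block the counts were 7, 9 and 5 at days 3, 7 and 15, as without it, and the rise of EGR1 in wild type from day 7 to day 15 no longer passed (0.46, adjusted p = 0.0568).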
